A study of Homo sapiens with 10 samples.

Results

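The 5 genes described here encode the subunits of the 2 cytosolic factors that drive the elongation cycle of protein synthesis, eEF1 and eEF2. Members were taken by gene symbol (EEF1A1, EEF1B2, EEF1D, EEF1G and EEF2), with no threshold on a measured value, and all 5 were among the 10628 genes listed in the files. All 5 were listed in each of the 4 MDA-MB-231 libraries, and between 3 and 5 of them in each of the 6 HEK293T libraries. eEF1A, from EEF1A1, carries aminoacyl-tRNA to the ribosome with GTP and leaves as the GDP form. The eEF1B complex recharges it: EEF1B2 and EEF1D encode its nucleotide exchange subunits, and EEF1G the subunit that holds the complex together. eEF2 is the GTPase that moves the ribosome to the next codon, and eEF2 kinase is known to inhibit it. Most of these mRNAs are known to begin with a 5′ terminal oligopyrimidine (TOP) tract, a C followed by pyrimidines, which makes their translation sensitive to mTOR signalling.

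On GRCh38 (GENCODE 29) EEF1A1 lies at chr6:73515750-73523797 on the minus strand, and its main transcript has 1386 coding bases in 7 coding exons. EEF1B2 lies at chr2:206159585-206162928 on the plus strand (675 coding bases, 6 coding exons) and EEF1D at chr8:143579697-143599541 on the minus strand (843 coding bases, 7 coding exons). EEF1G lies at chr11:62559601-62574086 (1311 coding bases, 10 coding exons) and EEF2 at chr19:3976056-3985469 (2574 coding bases, 15 coding exons), both on the minus strand. All positions below are in coding exons, since the files hold coding positions only.

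Ribo-STAMP marks mRNA on ribosomes by fusing the cytidine deaminase APOBEC1 to the ribosomal protein RPS2, so that the coding sequence collects C-to-U edits. Every line carried a doxycycline-inducible vector, induced with 1 ug/mL doxycycline, and polyadenylated RNA was read as full-length PacBio reads. HEK293T, an embryonic kidney line, expressed for 72 h either unfused APOBEC1 (APOBEC1-only, n = 3) or the fusion (Ribo-STAMP, n = 3). The breast cancer line MDA-MB-231, which is triple-negative, expressed the fusion for 48 h and was untreated (n = 2) or given 100 uM CoCl2 for 48 h (n = 2), a cobalt salt used to mimic hypoxia. The libraries of the 2 lines were made with different kits, so no test was made between lines, and MDA-MB-231 had no APOBEC1-only control. The labels number the replicates without saying whether they were separate cultures, so the spread behind each p-value is that between libraries and may be technical.

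The files list a position in the coding sequence only where at least 1 read was edited, with its edited reads and the reads covering it. APOBEC1-only libraries held 2971 to 3498 edited reads, HEK293T Ribo-STAMP libraries 50908 to 65792 and MDA-MB-231 libraries 155572 to 177069. No position of any gene was listed in all 6 HEK293T libraries or in all 4 MDA-MB-231 libraries, while 39893 MDA-MB-231 positions were listed in 3. In HEK293T 5097 positions were listed in 3 libraries, 274 in 4 and 54 in 5, so the 2 lines are not alike in this. These gaps touch every level below. All 10 markers fixed for MDA-MB-231 were listed in every MDA-MB-231 library. In each HEK293T group, 1 or 3 of them were listed in at least 1 library. Of 8 HEK293T markers, 5 or 6 were listed in at least 1 library of each HEK293T group. The renal gene PAX2 and NEFL were not listed there. Only 1 of the 8 was in every APOBEC1-only library, and 5 were in every HEK293T library with the fusion. HEK293T markers did not separate the lines, since 3 of the 8 were in every MDA-MB-231 library. Their summed covering reads were 431 to 528 in MDA-MB-231 and 121 to 355 in HEK293T. ESR1 and PGR, the hormone receptors that define the triple-negative state by their absence, were listed in no library. Of the same list of genes, ERBB2, which encodes the receptor HER2, and EPCAM were listed in both untreated MDA-MB-231 libraries, with 30 to 45 covering reads summed over the list.

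The starts of 3 of these genes show the tract by which TOP mRNAs are defined. Sequences are RefSeq's for GRCh38.p14, and 4 of the 5 genes matched its promoter table. A tract was taken as a C followed by pyrimidines, at least 5 bases in all, on the gene's strand and beginning within 10 bases of the listed start. The tract is in capitals and begins at the listed start in each of these 3 stretches.
EEF1A1, chr6:73521013-73521037, minus strand: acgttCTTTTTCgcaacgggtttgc
EEF2, chr19:3985444-3985468, minus strand: gcgttCTCTTCCgccgtcgtcgccg
EEF1B2, chr2:206159890-206159914, plus strand: cgggtCCTTTTTCCTCTCTTCagcg
EEF1B2 had the longest of the 3 tracts, 16 bases against 7 in EEF1A1 and EEF2. No tract lay within 10 bases of the listed EEF1G start or of the other of the 2 EEF1B2 starts, which says only that these letters are not in those windows. Of 35116 promoters, 33.5% held a tract within that distance and 4.07% one beginning exactly at the start. Among 83 promoters of ribosomal proteins other than RPS2 the shares were 80.7 and 57.8%, and 8 of 10 promoters of other known TOP mRNAs had a tract exactly at the start.

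The edited sites themselves differed between members in the base before the edited C. APOBEC1 is known to favour a C that follows A or U. A stretch of 90 coding bases within 1 exon is shown for EEF1A1, EEF1B2, EEF1G and EEF2, but not for EEF1D. It is the stretch of the gene with the most listed positions in MDA-MB-231, read from GENCODE 29 transcripts (GRCh38). Each C listed as edited in at least 1 library is in capitals.
EEF1A1, chr6:73518735-73518824, minus strand: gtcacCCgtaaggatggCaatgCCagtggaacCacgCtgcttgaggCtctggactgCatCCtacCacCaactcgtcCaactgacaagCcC
EEF1B2, chr2:206160595-206160684, plus strand: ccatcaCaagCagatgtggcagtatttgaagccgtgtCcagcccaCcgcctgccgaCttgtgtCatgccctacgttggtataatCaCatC
EEF1G, chr11:62572587-62572676, minus strand: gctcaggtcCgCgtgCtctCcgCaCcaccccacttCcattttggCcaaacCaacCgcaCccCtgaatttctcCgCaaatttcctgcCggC
EEF2, chr19:3977458-3977547, minus strand: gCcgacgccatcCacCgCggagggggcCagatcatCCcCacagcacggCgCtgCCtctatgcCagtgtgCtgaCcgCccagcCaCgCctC
In the EEF1A1 stretch (codons 216 to 245), 15 of 17 C after C or G were listed, but only 1 of 14 C after A or U. In the EEF1B2 stretch the reverse held, with 8 of 10 C after A or U listed and 1 of 18 others. EEF1G had 4 of 14 and 12 of 25, and EEF2 4 of 11 and 16 of 28.

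Over the whole coding sequence, EEF1A1 had 305 C, of which 147 followed A or U. Of those 147, 8 were listed in any MDA-MB-231 library (5.44%), against 117 of the other 158 (74.1%). Listed EEF1A1 positions therefore followed A or U in 6.40% of cases, where 48.2% of its C do. EEF1B2 showed the opposite: 32 of 62 C after A or U were listed (51.6%) and 6 of 69 others (8.70%). EEF1D, on chromosome 8, was similar, with 39 of 82 (47.6%) and 13 of 141 (9.22%). EEF1G had 40 of 139 (28.8%) and 98 of 206 (47.6%), and EEF2 148 of 297 (49.8%) and 177 of 479 (37.0%).

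**Figure D1:**
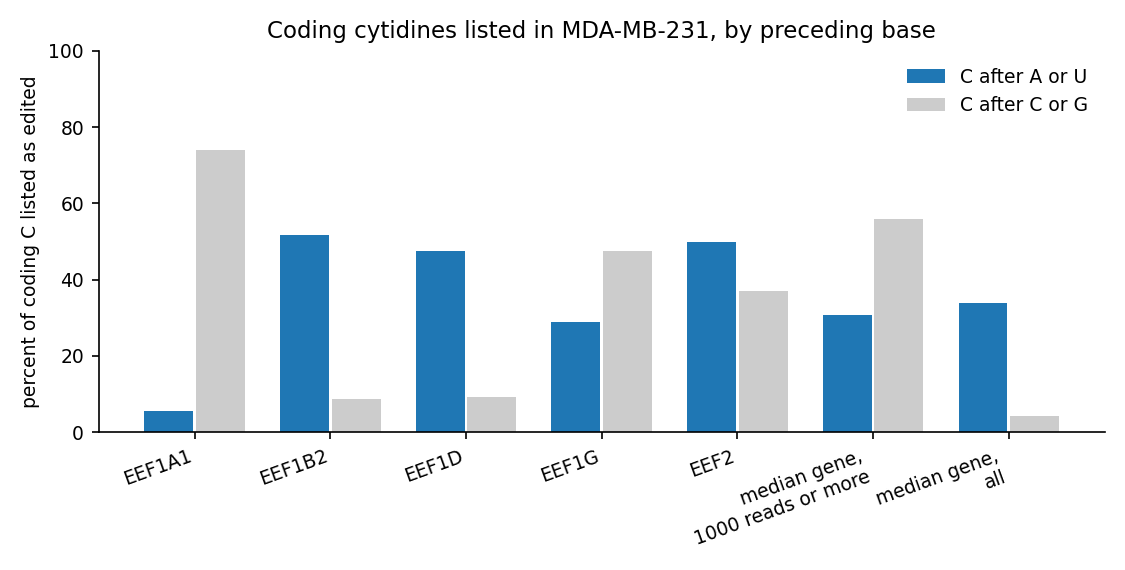
Percent of coding C listed as edited in at least 1 MDA-MB-231 library, for C after A or U (blue) and C after C or G (grey), in each elongation factor gene and for the median gene covered by at least 1002.5 reads (n = 135) and of all genes compared (n = 5376). EEF1A1 is at 5.44 and 74.1%, EEF1B2 at 51.6 and 8.70%.

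The contrast followed coverage across genes. The median gene had 33.8% of its C after A or U listed and 4.26% of the others (n = 5376 genes). Among the 135 genes covered by at least 1002.5 reads the medians were 30.6 and 55.9%. EEF1A1 ranked 13th lowest of 5376 in the share of listed positions after A or U and 6th highest in the share of other C listed. In EEF1B2 and EEF1D, all positions listed in 3 libraries followed A or U, as did 89.4% of those in EEF2 and 74.1% in EEF1G, but 13.3% in EEF1A1. Edited reads at a single listed position reached at most 7 in EEF1A1, 8 in EEF1G and 10 in EEF2, where the main EEF1A1 transcript was covered by 3709 to 4841 reads. Why no position appears in all 4 libraries is not given in the sources used here, and the part of that gap in these shares was not tested.

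The position with the most edited reads followed G in EEF1A1 and A or U in the other 3 genes shown, EEF1G included, although most listed EEF1G positions follow C or G. Each is shown with 10 bases on either side, the edited C in capitals.
EEF1A1, chr6:73518721-73518741, minus strand: caagcccttgCgcctgcctct
EEF1B2, chr2:206161395-206161415, plus strand: gaagacactaCaggaagtgga
EEF1G, chr11:62567501-62567521, minus strand: agccttctttCcgccaggcct
EEF2, chr19:3977464-3977484, minus strand: agtgtgctgaCcgcccagcca
The EEF1A1 site, the first base of codon 247, follows G and had 4 edited of 3709 reads and 7 of 3892 in CoCl2 replicates 1 and 2 and 3 of 4396 in untreated replicate 1. It was not listed in untreated replicate 2. The EEF1B2 site, in codon 88, follows A and was edited in 3 of 68 and 3 of 74 reads in untreated replicate 2 and CoCl2 replicate 1. In CoCl2 replicate 2 it was edited in 1 of 6 reads, the coverage of isoform ENST00000392221 alone. All listed EEF1B2 isoforms together had 71 reads in that library. The EEF1G site, in codon 180, follows U and reached 8 of 1336 reads in CoCl2 replicate 2 and 6 of 944 in untreated replicate 2, but 2 of 1487 in CoCl2 replicate 1. The EEF2 site, in codon 735, follows A and was edited in 8 of 1400 and 10 of 1418 reads of the untreated libraries and 1 of 922 in CoCl2 replicate 2.

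The HEK293T comparison asked how far tethering the deaminase to the ribosome raised editing above that of the free enzyme. EEF1A1, EEF1G and EEF2 rose with Ribo-STAMP, and per covering read EEF1A1 had the 2nd largest rise of 392 genes. Every gene ranked had an edited read in each APOBEC1-only library, which sets a floor that is higher for less covered genes. The part of that floor in this rank was not tested. The measure is edited reads per 100 covering reads, summed over positions of isoforms listed in all 6 libraries, so that it can pass 100. EEF1A1 was at 1.11, 0.957 and 1.39 in APOBEC1-only replicates 1, 2 and 3 and at 86.9, 75.0 and 100.4 in Ribo-STAMP. That is 1.15 ± 0.217 against 87.4 ± 12.7 (SD, n = 3 each), a ratio of 76.0. EEF2 went from 3.26, 4.15 and 3.95 to 72.0, 74.1 and 77.8, a ratio of 19.7. EEF1G went from 1.504, 1.56 and 2.67 to 41.9, 37.7 and 52.4, a ratio of 23.0. The groups did not overlap for any of the 3 genes, nor did they for the median gene, which went from 2.62 ± 0.278 to 35.3 ± 1.73.

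On the log2 ratio of edited to unedited reads, tested with limma, EEF1A1 rose by 6.19 ± 0.27 (SE, adjusted p = 1.33e-09). EEF1G rose by 4.36 ± 0.38 (limma adjusted p = 1.16e-07) and EEF2 by 4.27 ± 0.28 (limma adjusted p = 9.17e-09). Of the 392 genes 95.7% rose and the median change was 3.47, so the calls alone do not set the members apart. With each library centred on its median gene, EEF1A1 stayed 2.82 and EEF2 0.90 above it (limma adjusted p = 1.44e-05 and 0.0313), while EEF1G was 0.98 above and lost its call (limma adjusted p = 0.0561). Centring changed the calls over all genes from 375 higher and 0 lower to 73 higher and 53 lower.

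Edited reads scaled to depth, without regard to coverage, rose in the same 3 members, and in 99.7% of 654 genes. A gene entered with 10 edited reads in 3 libraries, which Ribo-STAMP alone can meet, so this share is partly fixed by the filter. EEF1G had 2, 2 and 10 edited reads in APOBEC1-only and 18, 20 and 176 in Ribo-STAMP. Without the filter 32.4% of 7004 genes were called higher, EEF1A1, EEF1G and EEF2 among them (limma adjusted p = 1.6e-07, 0.00128 and 1.06e-05). With the filter, the log2 changes were 5.25 ± 0.51 for EEF1A1, 3.03 ± 0.69 for EEF1G and 3.81 ± 0.50 for EEF2 (SE, limma adjusted p = 1.95e-12, 6.27e-05 and 2.84e-09). The median of all genes tested was 3.76. By this measure EEF1A1 ranked 25th, EEF2 312th and EEF1G 571st of 654. Under TMM scaling, which moved that median to 0.75, none of the 3 was called. Per covering read, initiation factors (9 of 9 tested) and other TOP mRNAs (4 of 4) rose as well, with median changes of 3.70 and 4.65. ABCE1, the ribosome recycling ATPase, HBS1L, a ribosome rescue GTPase, and DPH1, of diphthamide synthesis, were the tested elongation partners and rose by 4.37, 4.53 and 2.61.

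EEF1B2 and EEF1D had too few edited reads in HEK293T to pass the filter on low values. EEF1B2 had 0, 1 and 0 edited reads in APOBEC1-only and 1, 3 and 9 in Ribo-STAMP, and EEF1D 0, 1 and 1 against 0, 0 and 2. Their listed isoforms were covered by at most 20 and 12 reads. In the fit without that filter, EEF1B2 edited reads were called higher, by 1.74 (limma adjusted p = 0.0464), where 32.4% of 7004 genes were, and EEF1D was at -0.20 (limma adjusted p = 0.779). Neither gene had an isoform listed in all 6 libraries, so neither has a value per covering read.

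**Figure D2:**
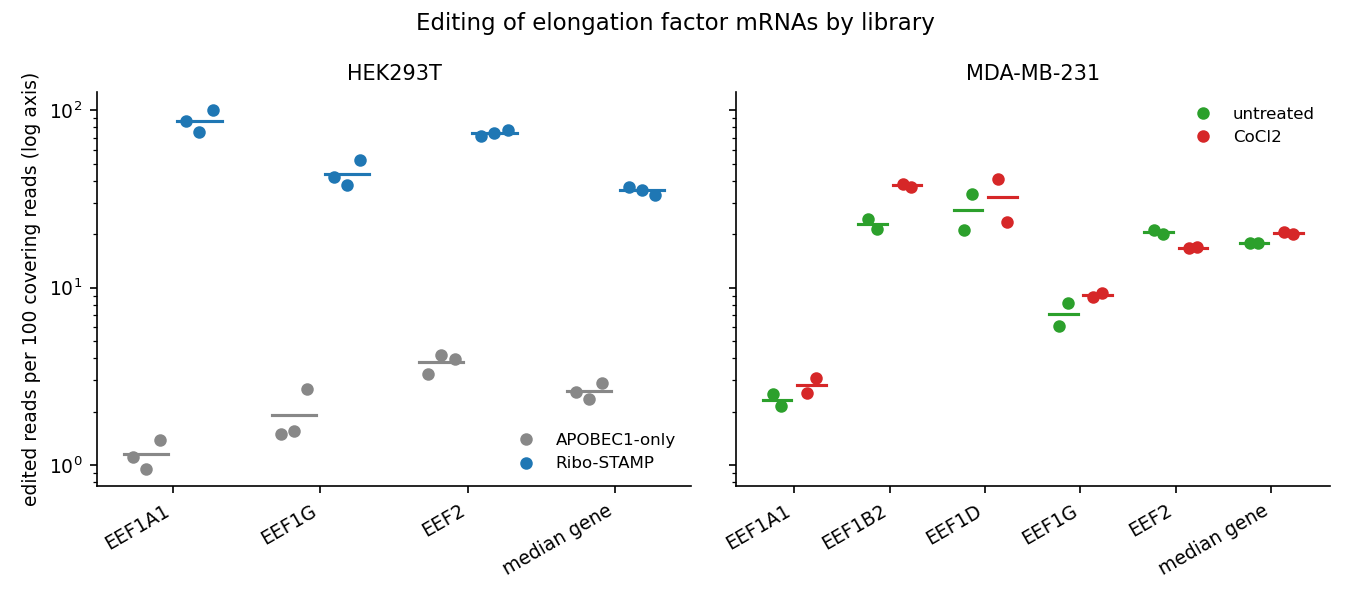
Edited reads per 100 covering reads (log axis) by library for each elongation factor gene with a value and for the median gene, in HEK293T (left) and MDA-MB-231 (right). Points are libraries and bars group means. In HEK293T Ribo-STAMP, EEF1A1 lies at 75.0 to 100.4, and in MDA-MB-231 at 2.15 to 3.08.

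Genes of different length are compared by the percent of covered coding C that was edited, which divides by the C in the coding sequence. In HEK293T Ribo-STAMP this was 0.287 ± 0.0416% in EEF1A1, 0.128 ± 0.0219% in EEF1G and 0.0962 ± 0.00383% in EEF2 (SD, n = 3 each), against 0.0739% for the median gene. EEF1A1 ranked 5th of 386 genes and first of the 31 within 2-fold of its coverage. EEF1G ranked 60th of 386 and EEF2 131st. Within 2-fold of its own coverage, EEF1G ranked 25th of 163 genes, and EEF2 35th of 55, below their median of 0.102%. With APOBEC1 alone the values were 0.00377, 0.00555 and 0.00488%, and all 3 genes ranked below the middle (326th, 206th and 257th). A gene had a value only with an edited read in every library, so less covered genes cannot show values as low. In APOBEC1-only coverage EEF1A1 ranked 2nd, EEF1G 72nd and EEF2 11th of 392 genes. The part of this entry rule in the APOBEC1-only ranks was not tested.

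Much of the HEK293T Ribo-STAMP signal of EEF1A1 sat at recurrent sites. Of its 205 positions there, 80 were listed in all 3 Ribo-STAMP libraries and held 1590 of 1979 edited reads (80.3%). For EEF2 the share was 54.7% (50 of 279 positions), for EEF1G 15.9% (6 of 101), and over all genes 22.0%. Without these positions EEF1A1 fell to 10.0, 13.9 and 21.4 edited reads per 100 covering reads in replicates 1, 2 and 3. EEF2 fell to 26.6, 30.5 and 38.1, and EEF1G to 25.6, 22.6 and 46.7. These positions were picked by their own editing, and the values are not per coding C, so they give no order between the genes. In Ribo-STAMP coverage EEF1A1 ranked 9th, EEF2 23rd and EEF1G 141st of 392 genes, the same order as their shares at recurrent sites. The part of coverage in those shares was not tested. The most edited EEF1A1 position in HEK293T was edited in 8 of 259, 18 of 478 and 109 of 1388 Ribo-STAMP reads. APOBEC1-only replicate 3 had 1 edited read of 1083 there. The most edited EEF2 position had 12 of 289, 8 of 283 and 41 of 913.

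In untreated MDA-MB-231 the order was EEF1B2, EEF1D, EEF2, EEF1G and EEF1A1. EEF1A1 was last here and first in HEK293T, where only EEF1A1, EEF1G and EEF2 had a value. No position was listed in all 4 MDA-MB-231 libraries, while 4910 were listed in all 3 HEK293T Ribo-STAMP libraries. In EEF1A1 such positions held 80.3% of the HEK293T Ribo-STAMP edited reads, so the 2 lines are compared on unlike lists. The part of that difference in this order was not tested. The percent of covered coding C edited was 0.174 ± 0.0166 in EEF1B2, 0.125 ± 0.0404 in EEF1D, 0.0280 ± 0.00087 in EEF2, 0.0206 ± 0.00426 in EEF1G and 0.00766 ± 0.00087 in EEF1A1 (SD, n = 2 each). The median gene was at 0.0636. EEF1B2 (0.186 and 0.163 in replicates 1 and 2) and EEF1D (0.0968 and 0.154) did not overlap, but the gap between them was smaller than the range within EEF1D. EEF2, EEF1G and EEF1A1 did not overlap either. In CoCl2 EEF1B2 reached 0.288 and ranked 99th. EEF1B2 ranked 342nd and EEF1D 852nd of 5570 genes, EEF2 4881st, EEF1G 5234th and EEF1A1 5544th. The less covered members had the higher percent, except that EEF2 was above EEF1G: EEF1A1 was covered by 4397 and 4841 reads, EEF2 by 1302.5 and 1372, EEF1G by 839 and 944, EEF1D by 71 and 68 and EEF1B2 by 41 and 61.

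Among genes within 2-fold of the same coverage, EEF1A1 ranked 28th of 37 (their median 0.00985%), EEF1G 243rd of 301 and EEF2 180th of 325 (median 0.0298%). EEF1B2 and EEF1D ranked 194th of 2360 and 401st of 2276. Across 5570 genes, Spearman's rho of coverage with this percent was -0.215 in untreated MDA-MB-231 and 0.303 across 386 genes in HEK293T Ribo-STAMP, given as a description since coverage enters both axes. In MDA-MB-231 the median of the fifth of genes with the highest coverage was 0.0456%, against 0.0699 to 0.0750% in the other 4 groups. Library kit and induction time differ with the line and cannot be told apart from it.

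**Figure D3:**
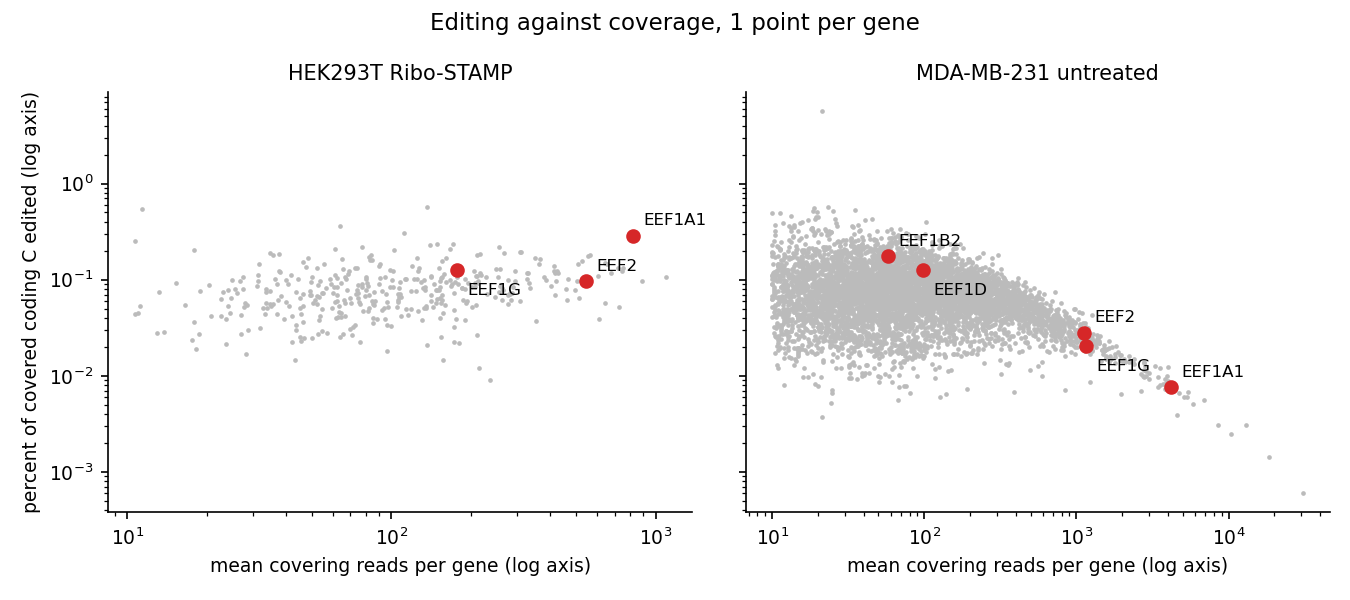
Percent of covered coding C edited against mean covering reads over the line's libraries, 1 point per gene (both axes log), for HEK293T Ribo-STAMP (left, 386 genes) and untreated MDA-MB-231 (right, 5570 genes), with the elongation factors in red. EEF1A1, EEF1G and EEF2 lie on the descending edge at high coverage in MDA-MB-231, and EEF1A1 is 5th highest in HEK293T.

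Coverage of the isoforms listed in every library, scaled between libraries by a trimmed mean, stands in for mRNA level. In bulk RNA fewer cells and less RNA per cell cannot be told apart. In HEK293T none of the 3 tested genes was called between constructs, nor was any of the 392 genes (0% called in either direction by limma, with 6 higher and 24 lower at an unadjusted p below 0.05). EEF1A1 was covered by 903, 836 and 1083 reads in APOBEC1-only replicates 1, 2 and 3 and by 259, 476 and 1388 in Ribo-STAMP. EEF1G had 133, 128 and 374 against 43, 53 and 336, and EEF2 368, 337 and 1088 against 289, 282 and 907. The library numbered 3 was highest in both groups for all 3 genes, while the median gene differed from replicates 1 and 2 by 1.02-fold in each group. In Ribo-STAMP replicate 3, scaled EEF1G coverage was 7.03 times and EEF1A1 coverage 4.02 times that of replicates 1 and 2. The difference of replicate 3 from the others also fell with transcript length, by 0.84 (log2) per doubling in Ribo-STAMP and 0.19 in APOBEC1-only.

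The log2 changes with Ribo-STAMP were -0.92 ± 0.58 for EEF1A1, -1.17 ± 0.80 for EEF1G and -0.46 ± 0.64 for EEF2 (SE, limma adjusted p = 0.634, 0.634 and 0.830). Across genes the change in coverage rose with transcript length, by 0.50 (log2) per doubling. Of 4 equal groups of genes by length, the shortest, with EEF1A1 and EEF1G, had a median change of -0.56. The next, with EEF2, had -0.06, and the 2 longest had 0.15 and 0.31. Set side by side by replicate number, which does not clearly pair these libraries, scaled coverage was lower with Ribo-STAMP in every case. The 3 genes share the same libraries, so these cases are not independent. The share of all genes lower in every case is not given here. EEF1G went from 126.0 to 36.4, 129.7 to 54.9 and 464 to 321. EEF2 went from 349 to 245, 342 to 292 and 1350 to 866, and EEF1A1 from 856 to 219.5, 847 to 493 and 1344 to 1326. With the replicate number as a block the limma adjusted p was 0.157 for EEF1A1, 0.0888 for EEF1G and 0.409 for EEF2. Without both libraries numbered 3, a choice made after seeing the data, EEF1A1 and EEF1G were called lower by 1.43 and 1.56 (limma adjusted p = 0.00133 for both). In that setting 92 of 685 genes were called lower and 19 higher. The part of length in these calls was not tested. Editing per covering read kept its call in all 3 genes without the libraries numbered 3.

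**Figure D4:**
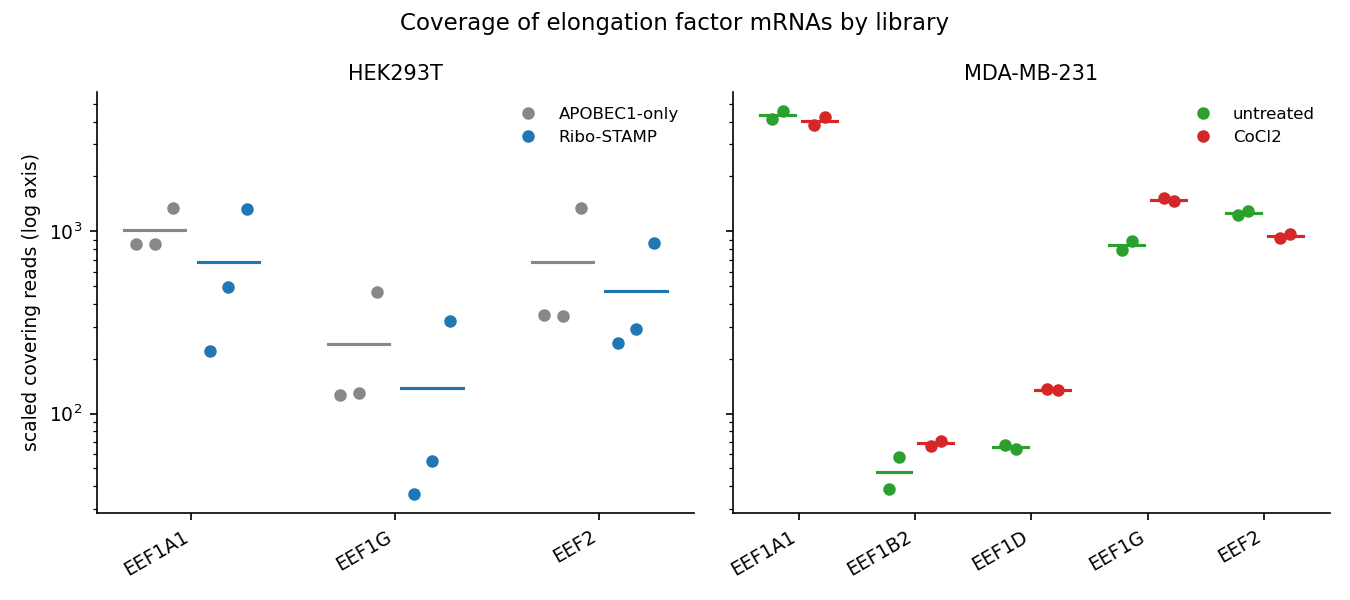
Scaled covering reads (log axis) by library for each elongation factor gene tested, in HEK293T (left) and MDA-MB-231 (right). Points are libraries, in order of replicate number, and bars group means. The third point of each HEK293T group is the highest of its group, and EEF1D and EEF1G are higher in CoCl2.

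The MDA-MB-231 comparison asked how the mRNAs responded to CoCl2. EEF1D and EEF1G coverage rose, and EEF1A1, EEF1B2 and EEF2 did not pass the test. EEF1D went from 67.1 and 64.1 scaled reads in untreated replicates 1 and 2 to 135.7 and 134.3 in CoCl2, a ratio of 2.06 (log2 change 1.03 ± 0.25 SE, limma adjusted p = 0.00425). EEF1G went from 792 and 890 to 1529 and 1458, a ratio of 1.78 (log2 change 0.83 ± 0.18, limma adjusted p = 0.00288). Neither pair of groups overlapped, but with only 2 libraries in each, groups can separate without any change, so this alone says little. EEF1B2 went from 38.7 and 57.5 to 66.8 and 71.0 (log2 change 0.53 ± 0.29, limma adjusted p = 0.133). EEF2 went from 1230 and 1294 to 917 and 970 (-0.42 ± 0.18, limma adjusted p = 0.0655), again without overlap. EEF1A1 overlapped, at 4153 and 4567 against 3814 and 4249 (-0.11 ± 0.17, limma adjusted p = 0.606).

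Coverage rose in 24.5% of the 5673 genes tested and fell in 19%, so 2 of 5 members higher is a small count against that background. The change fell with transcript length, by 0.52 (log2) per doubling. Of 4 equal groups of genes by length, 64.7% rose in the shortest, which holds EEF1B2, EEF1D and EEF1G, 22.5% in the next, with EEF1A1, and 5.30% in the third, with EEF2. With the length trend taken out of each library, EEF1G kept its call at 0.45 (limma adjusted p = 0.0289), EEF1D lost it at 0.48 (0.118) and EEF1B2 turned to -0.18 (0.588). Without CoCl2 replicate 1 or 2 neither EEF1D nor EEF1G was called (limma adjusted p = 0.174 to 0.216), with log2 changes of 0.82 to 1.06. In those settings 0 of 5894 and 1 of 5923 genes were called higher. Without untreated replicate 1 or 2, EEF2 was lower by 0.46 and 0.38 (log2). Those fits leave 1 untreated library, so only the size of the change is given.

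Of edited reads scaled to depth, EEF1G alone among the 5 passed the test. EEF1G went from 48.1 and 73.3 in untreated replicates 1 and 2 to 134.6 and 135.4 in CoCl2 (log2 change 1.17 ± 0.31 SE, limma adjusted p = 0.0348). EEF1B2 went from 9.44 and 15.2 to 34.9 and 29.3 and EEF1D from 14.2 and 22.9 to 62.7 and 33.6. Their changes, 1.34 ± 0.42 and 1.30 ± 0.42, did not pass (limma adjusted p = 0.0507 and 0.0549). EEF2 went from 261.4 and 260.9 to 153.1 and 162.5 (-0.72 ± 0.25, limma adjusted p = 0.0656), and EEF1A1 from 106.6 and 100.9 to 100.7 and 133.3 (0.16 ± 0.29, limma adjusted p = 0.715). Edited reads rose in 12% of 4097 genes and fell in 2.88%. Which members passed changed with the settings: 3 were called higher with limma-voom, none with TMM scaling over edited reads, where EEF2 was called lower. TMM scaling also moved the calls over all genes from 493 higher and 118 lower to 207 and 194, and the median change from 0.19 to -0.01.

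Per covering read none of the 5 genes was called. EEF1B2 had 24.4 and 21.3 edited reads per 100 covering reads untreated and 38.5 and 36.9 in CoCl2 (log2 change 0.71, 95% interval -0.40 to 1.81, limma adjusted p = 0.684). EEF1G went from 6.08 and 8.16 to 8.81 and 9.36 (0.36, interval -0.10 to 0.82) and EEF1A1 from 2.52 and 2.15 to 2.56 and 3.08 (0.27, interval -0.13 to 0.68). EEF2 went from 21.3 and 19.97 to 16.7 and 16.9 (-0.21, interval -0.61 to 0.19), and EEF1D overlapped, at 21.1 and 33.8 against 40.9 and 23.6 (0.18, interval -0.96 to 1.32). The median gene rose from 17.9 to 20.3, by 0.20 on the log2 scale. EEF2 was thus the member below its untreated level while the median gene was above. Of 5673 genes 0% were called in either direction by limma, with 420 higher and 64 lower at an unadjusted p below 0.05, so a change of these sizes was not detectable here.

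**Figure D5:**
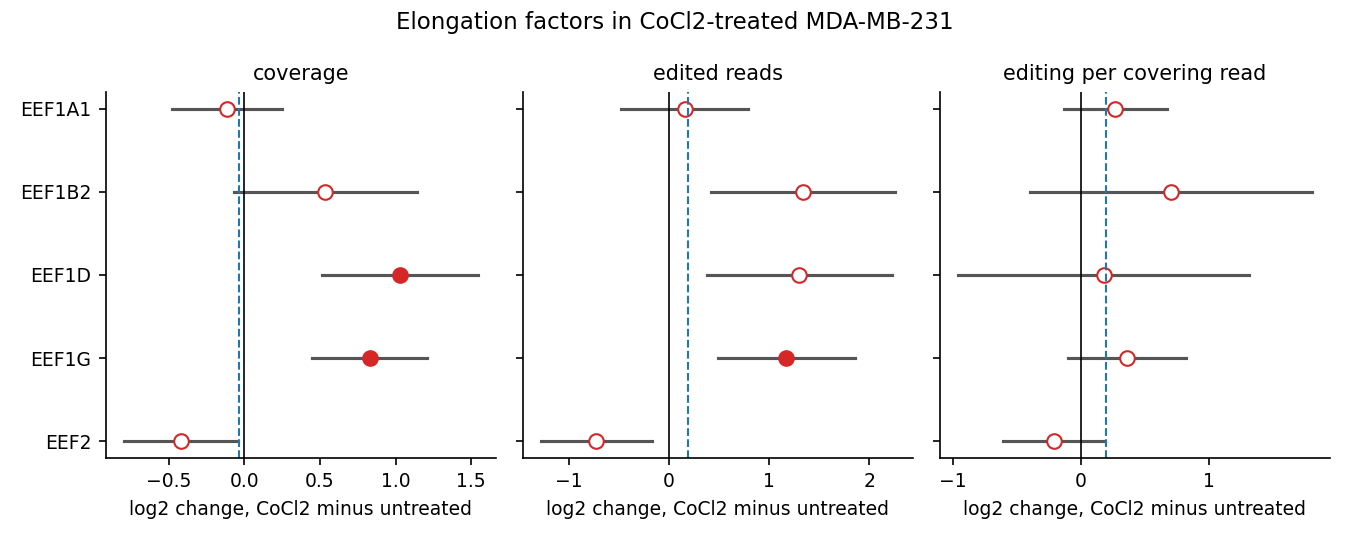
Log2 change in CoCl2-treated against untreated MDA-MB-231 for each elongation factor gene, in coverage, edited reads and editing per covering read. Lines are 95% intervals, filled points have a limma adjusted p below 0.05, and the dashed line is the median of all genes tested. EEF1D and EEF1G coverage and EEF1G edited reads are filled.

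Other genes of the elongation cycle did not move one way in coverage. Of 20 tested partners of the factors 6 rose and 6 fell, with a median change of -0.19 against -0.04 for all genes. The 6 with the largest changes were split. EEF1E1, of the multisynthetase complex, rose by 0.95 and EEF1AKMT4, an eEF1A lysine methyltransferase, by 0.92. The mitochondrial factor GFM2 fell by 1.42, GTPBP1, a relative of eEF1A, fell by 1.24, and the recycling and rescue factors ABCE1 and HBS1L fell by 1.19 and 1.12. In edited reads 2 of 16 partners rose, EEF1E1 by 1.34 and TUFM, the mitochondrial counterpart of eEF1A, by 1.17, and ABCE1 fell by 1.28. Other TOP mRNAs rose in 7 of 14 and fell in 1, with a median of 0.53: TPT1 rose by 0.96 and FAU by 0.87, while PABPC1, the poly(A)-binding protein, fell by 1.48. Ribosomal proteins other than RPS2 rose in 63 of 76 with none falling (median 0.77), and initiation factors rose in 13 and fell in 7 of 35 (median 0.18). Over all genes 24.5% rose and 19% fell, and 64.7% of the shortest group by length rose. The part of length in these lists' counts was not tested. Hypoxia-induced genes used as a check of the treatment rose in 7 of 12, BNIP3 by 1.56 and ADM by 1.38, and SLC2A1 fell by 0.58.

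Isoforms added little in 3 of the genes. ENST00000309268 carried 99.8% of EEF1A1 edited reads in HEK293T and 97.7% in MDA-MB-231, EEF1G was listed with 1 isoform, and ENST00000309311 carried 97.2% of EEF2 edited reads in MDA-MB-231. EEF1A1 has many processed pseudogenes and EEF1A2 as a close copy, and how reads were divided among them is not given in the sources used here. EEF1B2 had 3 listed isoforms with the same 675 coding bases, so they can differ only outside it. ENST00000392222 had 20.8 and 20.6 edited reads per 100 covering reads untreated and 43.6 and 40.6 in CoCl2, on 24 to 39 reads. ENST00000236957 had 29.4 and 22.2 against 30.8 and 33.3, on 17 to 33 reads. The difference between the isoforms was not tested. EEF1D had 8 listed isoforms in MDA-MB-231, 3 of them in every library, and the main one, ENST00000395119, carried 64.9% of its edited reads.

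EEF2 was the member with the most edited positions, 336 in MDA-MB-231 against 138 in EEF1G, 126 in EEF1A1, 55 in EEF1D and 38 in EEF1B2. It also had the most coding C. In the main transcript 325 of 776 C were listed in EEF2, 138 of 345 in EEF1G and 125 of 305 in EEF1A1. EEF1D had 52 of 223 and EEF1B2 38 of 131. The EEF2 positions lay along its whole coding sequence of 2574 bases. In untreated cells, summed over both libraries, each of 10 equal segments held 1.35 to 2.78 edited reads per 100 covering reads, lowest in the third from the start codon and highest in the ninth. In CoCl2 the range was 0.70 to 2.47, again lowest in the third. Listed EEF2 positions followed A or U in 53.9 and 56.2% of cases untreated and 67.9 and 64.1% in CoCl2, with no overlap (exact permutation p = 0.3333, two-sided, the smallest that 2 against 2 allows). The listed EEF2 positions behind these shares numbered 178 and 169 untreated and 84 and 103 in CoCl2, and coverage was lower in CoCl2 as given above, whose part in the shares was not tested. EEF1B2 did not overlap either, at 90 and 81.8% of 10 and 11 positions untreated and 95.5 and 90.9% of 22 and 22 in CoCl2 (exact permutation p = 0.3333, two-sided). For EEF1A1 these shares were 10.4 and 6.45% against 8.06 and 9.23%, which overlap. EEF1D, at 81.8 and 81.8% against 90.3 and 77.3%, overlapped too. So did EEF1G, at 47.4 and 39.6% against 35.2 and 43.3%, with a lower mean in CoCl2. With 2 libraries in each group, groups can separate without any change. The share of all genes that separate in this way is not given here.

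The genes most like each member were those with the smallest root mean square difference in log2 edited reads per 100 covering reads, each library centred on its median gene. Over 10 libraries and 341 genes, PGK1, ATP5F1B and RPS2 were nearest to EEF1A1 (0.65, 0.66 and 0.72), and RPS2 is the protein fused in the construct. CCT8, MCM7 and PDIA3 were nearest to EEF1G (0.40, 0.43 and 0.45), and RPN2, SF3B2 and PIGT to EEF2 (0.44, 0.45 and 0.46). EEF1B2 and EEF1D had values only in the 4 MDA-MB-231 libraries, where among 5673 genes NDUFAF2, HIF1AN and CREB3 (0.07, 0.07 and 0.10) and LRRC8C, MTERF3 and SDSL (0.13, 0.14 and 0.15) were nearest.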

How the data were processed

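The authors deposited 1 text file per library, without a header, in which each line gives the edited and the covering reads of a coding position in an isoform. This reading comes from the values. How reads were aligned, edits called and filtered, and strand used is not given in the sources used here. The submitters' processing notes name hg19 and hg38. In MDA-MB-231 98.3% of entries lay in the GRCh38 coding sequence of their isoform (GENCODE 29) and in HEK293T 2.59%, so sequence is given for MDA-MB-231 only.

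Edited reads per gene were divided by relative depth, the median ratio of isoform coverage (0.819 to 1.15 in HEK293T, 0.923 to 1.06 in MDA-MB-231). Coverage and editing per read used isoforms present in all libraries of the line, 405 in HEK293T and 7313 in MDA-MB-231. In HEK293T this selects isoforms edited by free APOBEC1. A gene entered a fit with 10 edited reads in at least the number of libraries of the smaller group, or with a mean coverage of 10. Tests used limma 3.58.1 (R 4.3.3) with a trend, in each line separately and over all genes, two-sided, on log2(scaled value + 1) or on log2 of edited over unedited reads with 0.5 added to each. P-values were adjusted by Benjamini and Hochberg's method, with calls below 0.05. The fold changes of low genes are understated by the added 1. The fits were tested on simulated data.

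The members and gene lists were chosen with earlier results of these data known, although no measured value enters the rule for the members. All 5 members are named. From each list, up to 6 genes that passed were eligible, by size of change, and SLC2A1 was named after its values were seen. Likeness used the 3 nearest genes. Of the 3 positions with most edited reads per gene, the first is printed. In coverage, same-numbered HEK293T libraries deviated together (correlations 0.230, 0.441 and 0.580), but so did libraries 1 and 2 across the groups (0.583 and 0.443). Libraries 3 against 1 or 2 of the other group gave -0.386 to -0.583, so the numbers do not clearly pair the libraries. The replicate block changed no call of a member in coverage.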

Additional observations from a re-analysis of the deposited data

How the results depend on the processing

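Of 331 values of single genes under another setting, 290 kept their direction and their side of the threshold, 14 lost and 18 gained a call, and 9 changed sign. In HEK293T, TMM scaling over edited reads took the median of all genes from 3.76 to 0.75 and the members called higher from 3 to 0, with EEF1A1 at 1.32, EEF1G at -0.53 and EEF2 at -0.15. Relative to that median, EEF1A1 stayed above in both. Without both libraries numbered 3, 2 members were called lower in coverage. EEF2 coverage turned to 0.19 without APOBEC1-only replicate 3, within a leave-one-out range from -1.04. In MDA-MB-231 edited reads, 1 member was called higher. The count was 3 with a pseudocount of 5 or limma-voom, 2 without positions edited in 50% or more of reads, and 0 without the filter, with TMM, with scaling to total reads, with positions covered by at least 20 reads or with the number of positions. Leaving out each library gave 0 to 3 higher and 0 to 1 lower, and TMM and scaling to total reads 1 lower, where EEF1A1 turned to -0.041 and -0.026. EEF1D editing per read turned to -0.017 when centred on the median gene, -0.11 without untreated replicate 1 and -0.23 without CoCl2 replicate 1, within a leave-one-out range up to 0.59. In coverage, taking out the length trend left 1 of 2 members called higher and turned EEF1B2 to -0.18, and leaving out each library gave 0 to 2 higher and 0 to 1 lower. The causes were not tested, except that leaving out a library leaves 1 against 2, where the lone library is assumed to vary like the others. Calls over all genes in MDA-MB-231 coverage, 1388 higher and 1076 lower, became 693 and 586 without the length trend, 860 and 268 with isoforms listed in any library, 0 and 7 or 1 and 18 without CoCl2 replicate 1 or 2, and 2007 and 1861 without untreated replicate 2. Those in edited reads, 493 and 118, became 646 and 206 with a pseudocount of 5, 236 and 200 with scaling to total reads, 125 and 80 with at least 20 reads, 130 and 56 with the number of positions, 0 and 0 without the filter, 2 and 5 or 3 and 3 without CoCl2 replicate 1 or 2, and 1067 and 580 without untreated replicate 2. In HEK293T edited reads, 652 higher and 1 lower became 25 and 1 with TMM scaling and 2267 and 0 without the filter, where 4 members were called, and coverage over isoforms listed in any library gave 390 higher where none was called before.

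With the replicate number as a block, 3 members were called higher in MDA-MB-231 edited reads (783 and 304 of all genes) and no other count of members changed. Those numbers do not pair the samples (correlation of deviations 0.0227), nor does every pair in HEK293T for edited reads (0.0872 to 0.332) or editing per read (0.0356 to 0.224). Edited reads under 10 in a library limit EEF1B2 and EEF1D in HEK293T, and no position was listed in all libraries of a line.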
